A study of Mus musculus with 11 samples.

Results

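The genes described here were the Obox and Crxos homeobox genes, *Obox1*, *Obox2*, *Obox3*, *Obox5*, *Obox6*, *Obox7*, *Obox8* and *Crxos*. They were taken by their symbol from the annotated gene identifiers of the expression tables, which gave 8 genes of 54146. They were measured in 11 single mouse embryos, each collected at embryonic day 2.5 at the 8-cell stage from intercrosses of *Prdm10* heterozygotes and sequenced by a Smart-seq2 protocol primed on poly(A) tails. The 6 control embryos were *Prdm10* +/+ or *Prdm10* Δ/+, which the labels do not separate, so the controls may carry 1 deleted allele. The 5 mutant embryos were *Prdm10* Δ/Δ, in which exon 5 is removed through an ACTB-Cre cross, on a C57BL/6 background. Genotype was assigned by qRT-PCR of that exon on the cDNA. Collection and library work took place in 2 batches. Batch 1 held 3 control and 2 mutant embryos and was pre-amplified with 16 PCR cycles, and batch 2 held 3 control and 3 mutant embryos and was pre-amplified with 13 cycles. Isolation and cycle number changed together and cannot be told apart. Nothing in the labels says which embryos shared a litter.

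Homeobox genes encode transcription factors that bind DNA through a homeodomain, whose recognition helix lies in the major groove. The Obox genes are a rodent family that has multiplied next to *Crx* on mouse chromosome 7, and members of it are known as regulators of zygotic genome activation, when the embryo starts to transcribe its own genome. *Obox1*, *Obox2*, *Obox5* and *Obox7* are known mainly from oocytes and are called the maternal members here, *Obox3*, *Obox6* and *Crxos* are known from the early embryo and are called the embryonic members, and *Obox8* was put in neither class. PRDM10, the protein removed in the mutants, is a zinc-finger transcription factor.

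On GRCm38, the 8 genes lay on chromosome 7 between positions 14331436 and 15904020, a span of 1573 kb. *Obox8* (chr7:14331436-14333557, minus strand) stood at the centromere-proximal end, and *Obox6* (chr7:15833241-15839678, minus strand) and *Crxos* (chr7:15882617-15904020, plus strand) at the other. *Crxos* is named for lying on the strand opposite to *Crx*, but the annotated records of *Crxos* and *Crx* did not overlap. The annotation held 55 records whose symbol starts with Obox, and 47 of the 48 that are not members were pseudogenes. All 48 together held 0.194% of the reads given to Obox records, and none of them had a mean normalised count above 10.

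The homeodomain contacts DNA through a helix whose coding sequence is shown to compare the members. For the members that carried the results and for 2 maternal relatives, 60 coding bases around the core of that helix are given 5′ to 3′, read from the GENCODE vM21 transcripts. The capitals mark 18 bases that encode the core, which opens with tryptophan and phenylalanine codons. Each stretch is split by 1 intron in the genome.
Obox8 (chr7:14332052-14332637, minus strand): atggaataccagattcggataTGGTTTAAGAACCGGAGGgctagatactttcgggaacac
Obox6 (chr7:15833909-15834397, minus strand): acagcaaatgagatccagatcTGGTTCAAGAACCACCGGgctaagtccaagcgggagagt
Crxos, first homeobox (chr7:15897535-15898486, plus strand): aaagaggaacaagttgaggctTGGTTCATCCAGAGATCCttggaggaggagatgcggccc
Crxos, second homeobox (chr7:15902990-15903741, plus strand): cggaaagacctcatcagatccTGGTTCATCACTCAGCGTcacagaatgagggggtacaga
Obox1 (chr7:15555687-15556192, plus strand): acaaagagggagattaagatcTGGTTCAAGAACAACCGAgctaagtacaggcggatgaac
Obox5 (chr7:15758061-15758580, plus strand): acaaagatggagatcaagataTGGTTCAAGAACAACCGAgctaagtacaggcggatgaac

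*Obox1*, *Obox3*, *Obox5* and *Obox7* were identical over the 18 capital bases. *Obox1* and *Obox5* differed at 3 of the 60 bases and *Obox1* and *Obox7* at 5. *Obox6* differed from *Obox1* at 15 bases and *Obox8* at 26. The fourth codon of the capitals encodes asparagine, the residue that contacts DNA in most homeodomains, in every Obox stretch printed, and another residue in both *Crxos* stretches. The matching stretch of *Obox2* ran past the end of its annotated coding part and is not printed, and it differed from that of *Obox1* at 2 bases.

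Over whole transcripts, sharing was counted in words of 75 bases. Of the 75-base words in the *Obox1* transcripts, 47.2% also occurred in a transcript of another gene, all of them in *Obox2*, and of those of *Obox2* 52.6%. The share was 6.04% for *Obox5*, 6.53% for *Obox7*, 12.3% for *Obox3* (with its pseudogenes) and 10.5% for *Crxos* (with genes outside the family). It was 1.34% for *Obox6*, all with the pseudogene *Obox6-ps1*, and 0 of 1093 words for *Obox8*. The estimation program splits shared reads between genes and gives the standard deviation of each split. For *Obox1* and *Obox2* that standard deviation ranged from 0.78 to 3.49 reads per library, which came to between 11.5 and 65.5% of the estimated *Obox1* count and between 7.06 and 97.5% of that of *Obox2*. It was at most 0.0443% of the count for *Crxos*, at most 0.00616% for *Obox6* and 0 for *Obox8* in every library. *Obox1* and *Obox2* levels are therefore uncertain one by one. The annotated spans of *Obox1* and *Obox3*, on opposite strands, also overlap, but their transcripts shared no such word.

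**Figure D1:**
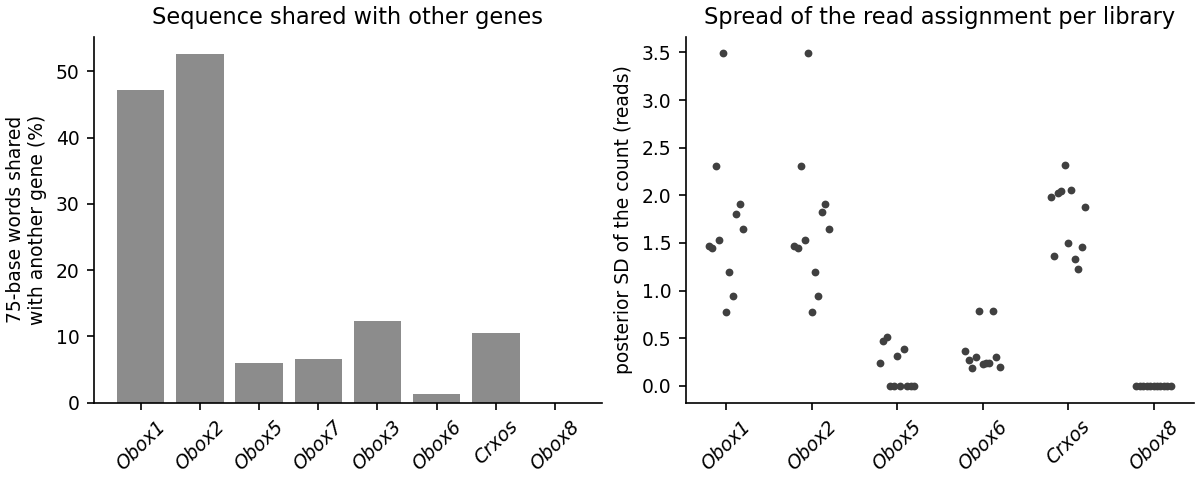
Left, bars give the percentage of distinct 75-base words in each gene's transcripts that also occur in a transcript of another gene. Right, each point is 1 of 11 libraries and gives the posterior standard deviation of the estimated count in reads. *Obox1* and *Obox2* share 47.2 and 52.6% of their words, while *Obox8* shares none and has a standard deviation of 0 throughout.

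Depth ranged from 3534735 to 8265840 estimated reads per embryo. Within each group, every pair of libraries differed by more than counting noise. *Prdm10*, the targeted gene, was at 11.1 to 24.8 TPM (a length-normalised level that sums to the same total in each library) in controls and 4.88 to 8.16 in mutants, although its log2 fold change of -0.66 ± 0.26 (SE) did not pass (DESeq2 adjusted p = 0.216). Its effective length, by which TPM is divided, was 2565 to 3357 bases in controls and 4348 to 5051 in mutants, with no overlap. The 8-cell markers *Pou5f1*, *Nanog*, *Tfap2c*, *Klf5*, *Dppa3* and *Dppa4* were all detected. Of 10 cumulus and granulosa cell markers, 4 were at 0 in every embryo (*Foxl2*, *Has2*, *Ptx3* and *Lhcgr*), and the sum of all 10 was 0 to 0.47 TPM in controls and 0 to 10.9 in mutants, the highest in mutant 2. The 7 oviduct epithelium markers summed to 41.2 to 75.9 TPM in controls and 34.5 to 73.7 in mutants. Most of that sum was *Epcam*, at a mean of 39.1 TPM (22.1 to 54.4 over the embryos). *Ovgp1* averaged 7.41 TPM, *Tppp3* 5.90 and the others at most 0.605, so the sum does not measure oviduct RNA alone. Of the 3 that passed the filter, *Ovgp1*, an oviductal glycoprotein gene at 0 to 30.1 TPM, was called between batches (higher in batch 2, log2 fold change 5.87 ± 1.12 SE; DESeq2 adjusted p = 5.56e-06, edgeR adjusted p = 0.000897), and none was called between genotypes.

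The embryonic members *Crxos* and *Obox6* made up nearly the whole of the family's RNA in 8-cell embryos. *Crxos* averaged 2038 ± 319 TPM (SD, n = 11) and *Obox6* 1515 ± 360 TPM (SD, n = 11), ranks 72 and 107 of all genes by mean TPM. *Obox8* followed at 56.2 to 409 TPM in controls and 11.4 to 43.2 TPM in mutants, and its rank by TPM ran from 378 to 5105 over the embryos. The remaining members were near the detection limit, with means of 2.00 TPM for *Obox2*, 1.64 for *Obox1*, 1.51 for *Obox5*, 0.241 for *Obox3* and 0.205 for *Obox7*. For comparison on the same scale, the highest of 24 other homeobox genes listed, the pluripotency gene *Pou5f1*, averaged 184 TPM.

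*Obox6* exceeded *Obox8* and *Obox8* exceeded *Obox2* in 11 of 11 embryos. *Crxos* exceeded *Obox6* in 8 of 11, and the 3 exceptions were the 3 controls of batch 1. The order among *Obox2*, *Obox1* and *Obox5* was not fixed: *Obox2* exceeded *Obox1* in 5 of 11 embryos, and *Obox1* exceeded *Obox5* in 5. *Obox3* and *Obox7* could not be ordered.

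The maternal members summed to 4.20 to 9.29 TPM in controls (median 5.57, n = 6). In mutants 1 to 5 their sum was 1.56, 8.68, 4.02, 5.67 and 4.18 TPM. The groups overlapped. The embryonic members summed to 3262 to 4024 TPM in controls (median 3662) and 2903 to 3775 in mutants (median 3625). The maternal share of the summed maternal and embryonic level was thus 0.161 ± 0.0622% in controls (SD, n = 6) and 0.139 ± 0.0666% in mutants (SD, n = 5). By batch the share was 0.137 ± 0.0197% (SD, n = 5) in batch 1 and 0.163 ± 0.0836% (SD, n = 6) in batch 2. All 8 genes together held 0.292 to 0.444% of the TPM of an embryo.

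**Figure D2:**
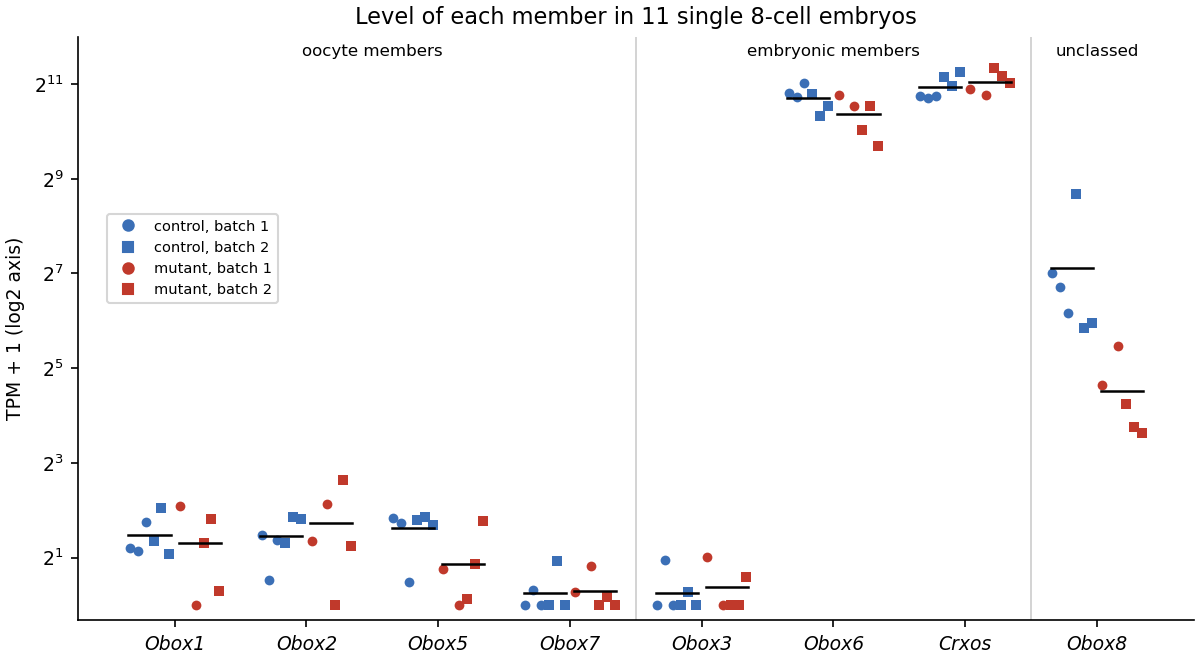
Each point is 1 embryo, blue for control and red for mutant, circles for batch 1 and squares for batch 2, plotted as TPM + 1 on a log2 axis; black lines are group means. *Crxos* and *Obox6* sit near the top in all 11 embryos, *Obox8* between, with the 5 mutants at 11.4 to 43.2 TPM below the 6 controls at 56.2 to 409 TPM, and the other members near the floor.

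*Obox8*, a homeobox gene of a single annotated transcript, was lower in the mutants. In batch 1 it was at 129, 105 and 71.3 TPM in the control embryos and at 24.2 and 43.2 TPM in the mutant embryos. In batch 2 it was at 409, 56.2 and 60.9 TPM in the controls and at 17.8, 12.6 and 11.4 TPM in the mutants. Every mutant lay below every control in both batches, and control 1, at 409 TPM, stood far above the other controls. The estimated counts behind these values were 172 to 2678 reads in controls and 64 to 200 in mutants.

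The fitted log2 fold change of *Obox8* with batch as a term was -2.69 ± 0.62 (SE; 95% interval -3.90 to -1.47), a level 6.44-fold lower. DESeq2 gave it no p-value, because control 1 exceeded the limit of its Cook distance filter on single influential samples. The edgeR quasi-likelihood test called the gene (adjusted p = 0.0478), and so did DESeq2 without that filter (adjusted p = 0.00358). Without control 1 the log2 fold change was -1.82, with a DESeq2 adjusted p of 1.33e-10 and an edgeR adjusted p of 0.00152. Within batch 1 alone it was -1.56 (DESeq2 adjusted p = 0.00281) and within batch 2 alone, which holds control 1, -3.64 (DESeq2 adjusted p = 0.0274). By limma on log2(TPM + 1) it was -2.34 and not called (adjusted p = 0.140).

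Among the 10489 genes whose mean normalised count was over 10, 67 (0.639%) had every mutant below every control, and *Obox8* was the only member among them. Fewer RNA molecules per cell and fewer cells holding the transcript cannot be told apart in a whole embryo. The summed cumulus and granulosa markers were highest in mutant 2, and leaving that embryo out gave a log2 fold change of -2.51 for *Obox8*, again without a DESeq2 p.

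**Figure D3:**
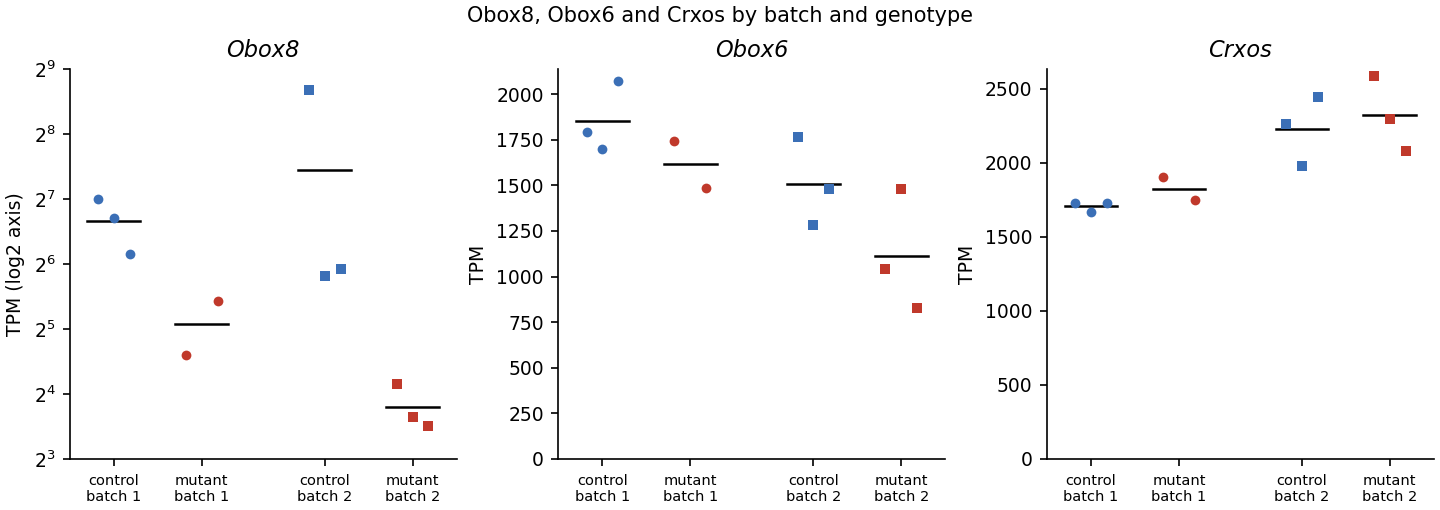
TPM of *Obox8* (log2 axis), *Obox6* and *Crxos* (linear axes from 0) in each embryo, by batch and genotype, blue for control and red for mutant; black lines are means of 2 or 3 embryos. The *Obox8* mutants lie below the controls in both batches, *Obox6* overlaps between genotypes, and *Crxos* separates the batches with 1667 to 1901 TPM in batch 1 and 1979 to 2586 in batch 2.

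*Obox6*, the most abundant Obox gene proper, did not pass the test between genotypes. Its levels in batch 1 were 1792, 1699 and 2074 TPM in controls and 1745 and 1487 TPM in mutants. In batch 2 they were 1763, 1282 and 1482 TPM in controls and 1039, 1477 and 826 TPM in mutants. Mutants and controls overlapped within each batch, and the 2 lowest values of all were mutants of batch 2. The log2 fold change was -0.33 ± 0.18 (SE; 95% interval -0.69 to 0.03; DESeq2 adjusted p = 0.497, edgeR adjusted p = 0.561).

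*Crxos*, a gene with a pair of divergent homeoboxes, was not called between genotypes. In batch 1 it was at 1730, 1667 and 1728 TPM in controls and at 1901 and 1748 TPM in mutants. In batch 2 it was at 2262, 1979 and 2445 TPM in controls and at 2586, 2298 and 2077 TPM in mutants. Genotypes overlapped in batch 2, and in batch 1 both mutants lay above the 3 controls. The log2 fold change was 0.04 ± 0.12 (SE; 95% interval -0.20 to 0.28; DESeq2 adjusted p = 0.950, edgeR adjusted p = 0.940).

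The maternal members gave wide intervals. *Obox5* was at 2.55, 2.33 and 0.40 TPM in the batch 1 controls and 2.47, 2.6 and 2.22 TPM in those of batch 2. In mutants 1 to 5 it was at 0.09, 0.83, 2.43, 0.69 and 0 TPM. The groups overlapped, with mutants 2, 3 and 4 within the control range and mutants 1 and 5 below it. The log2 fold change was -1.42 ± 0.82 (SE; DESeq2 adjusted p = 0.520). *Obox2* was at 0.43 to 2.64 TPM in controls (median 1.69) and at 0, 5.21, 1.37, 1.55 and 3.41 TPM in mutants 1 to 5, with a log2 fold change of 0.50 ± 0.83 (SE; DESeq2 adjusted p = 0.903). *Obox1* was at 1.10 to 3.14 TPM in controls (median 1.43) and at 1.47, 2.52, 0.22, 3.23 and 0 TPM in mutants 1 to 5. Its mean normalised count of 8.86 was below the filter.

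Summing the reads of *Obox1*, *Obox2*, *Obox5* and *Obox7*, which removes the split of reads among these 4 genes, gave 12 to 80 reads per embryo and a log2 fold change of -0.22 ± 0.45 (SE; 95% interval -1.11 to 0.67; DESeq2 adjusted p = 0.929). *Obox3* was listed at 0 in 7 embryos and reached at most 1.02 TPM, and *Obox7* was at 0 in 6 and reached 0.91 TPM. A count of 0 allowed up to 3 reads, or 0.335 to 0.541 TPM for *Obox3* and 0.443 to 0.599 TPM for *Obox7* over the libraries at 0, counting error only. No difference in these genes was detectable at this depth.

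Of the 8 genes, 5 had a mean normalised count above 10. None of them was called between genotypes by DESeq2, which called 1.42% of all genes tested; none had an unadjusted p under 0.05, with *Obox8* left without a p. The edgeR test called 1 of 5, *Obox8*, against 0.334% of all genes tested. The interaction of batch and genotype was called for none of the 5 by DESeq2 or edgeR, against 0.0382% of all genes by DESeq2; that of *Obox8* was -2.07 ± 1.12 (SE), without a DESeq2 p, and -0.51 without control 1.

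**Figure D4:**
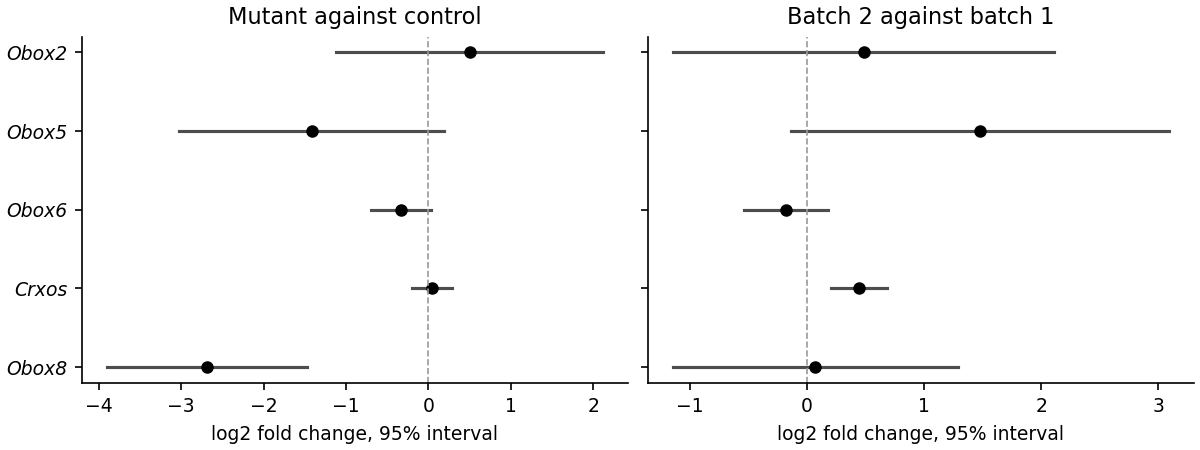
Points are fitted log2 fold changes and lines their 95% intervals, for the 5 genes with a mean normalised count above 10, between genotypes (left) and between batches (right). Only the *Obox8* interval on the left, -3.90 to -1.47, and the *Crxos* interval on the right, 0.21 to 0.68, lie apart from 0. The *Obox8* interval includes control 1, for which DESeq2 withheld the p-value, and the log2 fold change without control 1 was -1.82.

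Between batches, *Crxos* was called by DESeq2 and edgeR, and *Obox8* had no DESeq2 p for this comparison. Every embryo of batch 2 lay above every embryo of batch 1, at 2274 ± 225 TPM (SD, n = 6) against 1755 ± 87.5 TPM (SD, n = 5). The log2 fold change of the counts, with genotype as a term, was 0.44 ± 0.12 (SE; DESeq2 adjusted p = 0.00257, edgeR adjusted p = 0.0110). It was nearly the same in controls alone (0.45) and mutants alone (0.44), neither of which passed on its own (DESeq2 adjusted p = 0.184 and 0.110). By limma on log2(TPM + 1) it was 0.36 and not called (adjusted p = 0.110). Batch differences were widespread: 27.7% of all genes tested were called by DESeq2 and 22.7% by edgeR. Of the members above the count filter, 1 of the 4 with a DESeq2 p and 1 of 5 by edgeR was called, *Crxos* in both, and *Obox8* was called as well once control 1 was left out. All batch 2 embryos lay above all batch 1 embryos in 6.45% of the genes.

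*Obox6* went the other way in TPM, at 1312 ± 338 (SD, n = 6) in batch 2 and 1759 ± 211 (SD, n = 5) in batch 1, but its count-based log2 fold change of -0.18 ± 0.18 (SE) was not called (DESeq2 adjusted p = 0.531). Over all genes tested, the median difference of batch 2 from batch 1 was -0.20 on the log2(TPM + 1) scale. The ratio of *Crxos* to *Obox6* TPM within an embryo, which that shift does not enter, was 0.965, 0.981 and 0.833 in the batch 1 controls and 1.09 and 1.18 in the batch 1 mutants. It was 1.28, 1.54 and 1.65 in the batch 2 controls and 2.49, 1.56 and 2.51 in the batch 2 mutants. All 6 embryos of batch 2 lay above all 5 of batch 1.

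The effective length of *Crxos*, the mean length over which its reads could start given the mix of its transcripts, also differed by batch. It was 602 ± 12.2 bases (SD, n = 5) in batch 1 and 543 ± 10.9 bases (SD, n = 6) in batch 2, with no overlap (two-sided exact permutation test, p = 0.00433, the smallest this design allows). Within controls it was 604 to 614 bases in batch 1 and 538 to 554 in batch 2, and within mutants 582 to 603 and 529 to 556. Of 8270 genes whose effective length varied by over 1% between embryos, 2.67% were shorter in every batch 2 embryo in this way. *Crxos* has 6 annotated transcripts of 454 to 2246 bases, whereas *Obox6* and *Obox8* have 1 each and a constant length. With length as an offset in DESeq2, the batch difference of *Crxos* was 0.59 (adjusted p = 8.08e-05). The summed oviduct markers, of which *Epcam* was the largest part, also separated the batches. They were at 34.5 to 49.1 TPM in batch 1 and 51.9 to 75.9 in batch 2, and all 7 had a positive log2 fold change in batch 2. Of the 3 that passed the filter *Ovgp1* was called (5.87), and *Tppp3* (1.51, DESeq2 adjusted p = 0.0988) and *Epcam* (0.39, DESeq2 adjusted p = 0.165) were not. Their part in the *Crxos* difference was not tested.

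**Figure D5:**
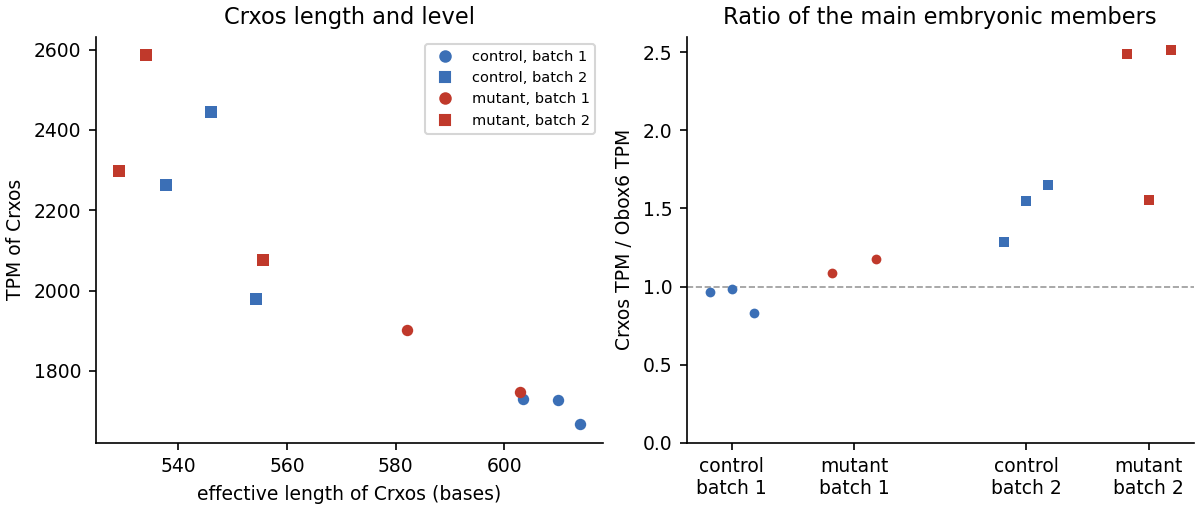
Left, TPM of *Crxos* against its effective length in bases, 1 point per embryo. Right, the ratio of *Crxos* to *Obox6* TPM by batch and genotype, with a dashed line at 1. Batch 2 (squares) has lengths of 529 to 556 bases and ratios of 1.28 to 2.51, and batch 1 (circles) 582 to 614 bases and 0.833 to 1.18.

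*Obox8* in batch 2 depended on control 1. Its log2 fold change between batches was 0.07 ± 0.62 (SE) over all embryos and -0.78 without control 1 (DESeq2 adjusted p = 0.0104, edgeR -0.76 with adjusted p = 0.0299). *Obox5* was at 1.48 ± 0.82 (SE) and *Obox2* at 0.49 ± 0.83 (SE), neither called.

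Of 24 other homeobox genes, 12 passed the filter. None was called between genotypes by DESeq2 or edgeR, beside 1.42% and 0.334% of all genes tested. At an unadjusted DESeq2 p under 0.05 there were 5, beside 1248 of the 10448 genes tested. In batch 2, 4 of the 12 were lower by DESeq2, beside 27.7% of all genes called between batches in either direction: the pluripotency genes *Pou5f1* (log2 fold change -1.53) and *Nanog* (-0.99), *Gsc* (-2.88) and *Tgif2* (-1.16). The edgeR test called 3 of these, without *Nanog* (edgeR adjusted p = 0.0734). Of 19 factors tied to zygotic genome activation, 14 passed the filter. Between genotypes 4 were at an unadjusted DESeq2 p under 0.05 and 2 were called by DESeq2, beside 1.42% of all genes. Of these 1 was higher, the Krüppel-like factor *Klf5* (0.84 ± 0.14 SE, DESeq2 adjusted p = 1.08e-06, edgeR adjusted p = 0.00729), and 1 was lower, *Klf17* (-1.10 ± 0.29 SE, DESeq2 adjusted p = 0.0212), which edgeR did not call (adjusted p = 0.188). The median log2 fold change of the 14 was -0.003, beside -0.001 over all genes tested.

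Between batches, 8 of these 14 were called by DESeq2, beside the same 27.7% of all genes: 4 were higher in batch 2, *Nr5a2*, *Klf4*, *Nfya* and *Yap1* (log2 fold change 0.66 to 1.61), and 4 were lower, *Klf17*, *Rarg*, *Tfap2c* and *Tead4* (-1.51 to -0.76). Of 22 oocyte genes, listed because the maternal Obox genes belong to the same stage, 18 passed the filter. None was called between genotypes by DESeq2 or edgeR, beside 1.42% and 0.334% of all genes tested. At an unadjusted DESeq2 p under 0.05 there were 4, beside 1248 of the 10448 genes tested. Their median log2 fold change was -0.45 over the 18, beside -0.001 over all genes tested. Between batches 2 of these 18 were called by DESeq2, beside that 27.7%: *Oosp1* was higher in batch 2 (2.54) and *Padi6* lower (-0.73), the latter not called by edgeR (adjusted p = 0.0564).

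Across the 11 embryos, the batch-centred log2 normalised counts of *Obox8* were most like those of *4930453N24Rik* (Pearson r = 0.974, Spearman rho = 0.973), *Coq10b*, a coenzyme Q binding protein gene (r = 0.948, rho = 0.927), and *Gatad2b*, a subunit of the NuRD complex (r = 0.948, rho = 0.964), among 5534 candidate genes. *4930453N24Rik* and *Coq10b* were themselves called lower in mutants, by 0.84 and 0.95 on the log2 scale (DESeq2 adjusted p = 0.0429 and 0.0443). *Gatad2b* was not called (-0.55, DESeq2 adjusted p = 0.135). Centring removed batch but not genotype, so picking genes for likeness to *Obox8* favours genes lower in mutants. These calls are therefore no separate evidence of a shared change. Those most like *Obox6* were the ribosome biogenesis genes *Noc3l* (r = 0.927) and *Lsg1* (r = 0.922) and the DNA repair gene *Apex1* (r = 0.910). Among those most like *Crxos* were the pseudogene *Rpl15-ps3* (r = 0.899) and the ribosomal protein gene *Rpl6* (r = 0.886). The weakly counted *Obox2* was most like *Kat6b*, *Kcnk6* and *Cox7b* (r = 0.893 to 0.931), and *Obox5* most like *Rnaseh1*, *Castor1* and *Fbxo9* (r = 0.880 to 0.908). These values are the highest of many and describe 11 points that share library preparation.

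Among the members, *Obox6* and *Obox8* had r = 0.60 (rho = 0.43), *Obox6* and *Crxos* r = 0.32 (rho = 0.35), and *Crxos* and *Obox8* r = -0.17 (rho = -0.23), on the same scale over 11 embryos. The weakly counted *Obox5* had r = -0.49 (rho = -0.70) with *Crxos* and r = 0.44 (rho = 0.62) with *Obox8*. The remaining pairs, all with *Obox2* or *Obox5*, had r = -0.15 to 0.38. Before centring on batch, *Obox6* and *Crxos* had r = -0.18.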

How the data were processed

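Single-embryo Smart-seq2 libraries (single-end, 75 bases) of 6 control and 5 mutant embryos were used. Per the labels and methods, the authors aligned reads with STAR 2.6.0c to GRCm38.p6 and quantified genes with RSEM on GENCODE vM18; the deposited tables give expected counts, which are estimated reads per gene, and TPM, normalised by the authors for length and depth. The series-wide table of the authors' fold changes and p-values was not used. Gene positions and transcripts come from GENCODE vM21, which matched 54079 of 54146 identifiers.

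Expected counts were rounded and fitted in DESeq2 1.42.0 (R 4.3.3) with batch and group. A gene was called at an adjusted p under 0.05 (Benjamini-Hochberg over all genes) and a mean normalised count above 10. Alternatives were edgeR 4.0.16 quasi-likelihood, limma 3.58.1 on log2(TPM + 1) and log2(TPM + 0.1), TMM factors, other filters, an effective-length offset, summed paralogs, each batch or genotype alone, and each embryo left out. The fits were tested on simulated counts that held no batch effect and no outlying embryo, so that test does not cover the *Obox8* result. The members and lists were chosen with earlier results of these data known. Named genes were *Prdm10*, the members, other Obox records above the filter, listed genes called between groups or batches, and the 3 genes most like each member; other genes named were singled out after their values were seen. A result of this rule is not reported here. Embryos count as replicates; with litters not labelled, p-values measure the spread between these embryos. Depth was 3534735 to 8265840 reads; amplified reads carry no molecular identifiers, so limits cover counting error only.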

Additional observations from a re-analysis of the deposited data

Results flagged for a closer look

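*Obox8* in control 1 stood far from the other controls, at 408.5 TPM against 56.2 to 129 TPM, so that its gap to the next embryo was 0.795 of the whole range of 6 controls. It carried 2678 estimated reads. *Obox5* in control 6 stood below the other controls, at 0.40 TPM against 2.22 to 2.6 TPM, from 4 reads. Of 12 sets of values tested in this way, all from the same control and mutant embryos with batches pooled, 2 held one. Chance gives about 1 in 20 for independent, normally spread sets, which these need not be, so that rate is only a rough guide. The cause of either value was not tested.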

How the results depend on the processing

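Of 366 values recomputed under alternatives, 317 kept their direction and their side of the threshold. The number of members called between genotypes, 0 in DESeq2, was 1 (*Obox8*) with edgeR, without the Cook distance filter, without a batch term, in batch 1 alone, in batch 2 alone and with edgeR without control 1 (chosen after seeing the data), and 0 to 1 when each embryo was left out. Leaving out control 1, 2 or 3 gave the call (DESeq2 adjusted p = 1.33e-10, 0.00219 and 0.00536). Leaving out any other embryo left *Obox8* without a DESeq2 p, so those fits could make no call. The number called between batches, 1, was 0 by limma on both log2(TPM + 1) and log2(TPM + 0.1), in controls alone and in mutants alone, and 2 with edgeR without control 1, and it was 1 to 2 when each embryo was left out. No value that changed sign was called by DESeq2 with all embryos, and the cause was not tested. Between batches, *Obox8* was at -0.42 by limma with a pseudocount of 1 and -0.45 with 0.1, -1.05 in mutants alone (against 1.01 in controls alone), -0.76 with edgeR without control 1, and -0.78 to 0.45 over embryos left out. *Obox2* was at -0.11 between batches and -0.27 between genotypes by limma with a pseudocount of 0.1, and at -0.11 to 0.81 and -0.19 to 0.83 over embryos left out. *Crxos* between genotypes was at -0.0027 to 0.10 over embryos left out. The interaction of *Crxos* was 0.0063 by edgeR and -0.094 to 0.11 over embryos left out, and that of *Obox5* -0.47 to 4.52. No paired analysis was possible because the replicate numbers were given in accession order and pair no embryos. Depth limits *Obox1*, *Obox3* and *Obox7*, which stayed under 10 mean counts, and the split of shared reads limits *Obox1* and *Obox2*. Isolation and PCR cycle number changed together between batches and cannot be told apart.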
